A study of Mus musculus with 15 samples.

Results

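The genes described here are 9 members of the tumour necrosis factor (TNF) superfamily of ligands and of its receptor superfamily, measured by RNA-Seq in mouse macrophages. They are the ligands *Tnf*, *Tnfsf10*, *Tnfsf13b* and *Tnfsf15* and the receptors *Fas*, *Tnfrsf1a*, *Tnfrsf1b*, *Tnfrsf9* and *Tnfrsf11a*. They were taken by name from a table of 51763 genes, and all 9 were among the 16919 genes that passed the filter on low counts.

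The study asked how macrophages respond to 2 redox forms of HMGB1, a nuclear protein that acts as a danger signal outside cells, compared with bacterial lipopolysaccharide (LPS) and with LPS plus IFNγ, a mixture that drives the classical inflammatory (M1) state. Bone marrow-derived macrophages (BMDMs) were grown with M-CSF from wild-type female C57BL/6NTac mice aged 8 to 10 weeks, for 10 days according to the sample labels and 8 to 9 days according to the methods of the paper, and they were stimulated for 24 h in medium with 1% serum. The 5 conditions, with 3 libraries each, were PBS as the unstimulated control, the fully reduced form (frHMGB1) and the disulfide form (dsHMGB1), both at 5 µg/mL, then LPS at 1 µg/mL and LPS/IFNγ. Cells of 5 mice were pooled before seeding. The libraries of a condition are therefore technical replicates, and no p-value here speaks to differences among animals, only to those among cultures. In LPS/IFNγ, IFNγ was used at 20 ng/mL and LPS at 100 ng/mL according to the protocol text, while the treatment field of the labels gives 1 µg/mL. The labels state that neither HMGB1 form was kept with the reducing agent DTT, while the methods of the paper name DTT in the frHMGB1 buffers. Both forms were recombinant, and the paper names dsHMGB1 as a gift of another laboratory. An effect of the redox form and of the protein preparation therefore cannot be told apart. With the lower LPS dose, LPS/IFNγ differs from LPS in 2 ways, and an effect of IFNγ and of the LPS dose cannot be told apart.

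TNF is made as a membrane protein, is cut free by the protease ADAM17 and acts through 2 receptors. TNFR1, encoded by *Tnfrsf1a*, is found on most cells, carries a death domain and can start either NF-κB signalling or cell death, while TNFR2, encoded by *Tnfrsf1b*, is found mainly on immune and endothelial cells and lacks a death domain. Macrophages are a main source of TNF in inflammation, and the death receptor Fas and the death ligand TRAIL, encoded by *Tnfsf10*, belong to the same families.

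Upstream sequences are shown for *Tnf*, the ligand with the highest level, and for *Fas*, a death receptor that rose after dsHMGB1, LPS and LPS/IFNγ. They are also shown for *Tnfrsf1b*, the receptor that was low in LPS/IFNγ and high in LPS. These are the 250 bases before the RefSeq start (build GRCm38.p6), read 5′ to 3′ on the gene's strand: *Tnf* at chr17:35202008-35202257 on the minus strand, *Fas* at chr19:34290409-34290658 on the plus strand and *Tnfrsf1b* at chr4:145246871-145247120 on the minus strand. Capitals mark a match, on either strand, to TATAAA, TTCNNNGAA (the GAS element), TGANTCA (AP-1), an interferon regulatory factor element (GAAA, any 2 bases, GAAA) or the kappaB consensus.
Tnf: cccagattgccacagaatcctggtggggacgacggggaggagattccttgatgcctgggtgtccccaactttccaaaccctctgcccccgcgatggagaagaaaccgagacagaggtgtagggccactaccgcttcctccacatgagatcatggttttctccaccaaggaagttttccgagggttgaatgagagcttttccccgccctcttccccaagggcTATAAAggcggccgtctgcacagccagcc
Fas: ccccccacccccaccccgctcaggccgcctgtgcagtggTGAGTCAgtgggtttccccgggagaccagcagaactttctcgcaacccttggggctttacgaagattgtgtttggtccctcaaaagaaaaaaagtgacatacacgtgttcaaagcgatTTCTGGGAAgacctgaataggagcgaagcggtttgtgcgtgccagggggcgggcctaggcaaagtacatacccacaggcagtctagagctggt
Tnfrsf1b: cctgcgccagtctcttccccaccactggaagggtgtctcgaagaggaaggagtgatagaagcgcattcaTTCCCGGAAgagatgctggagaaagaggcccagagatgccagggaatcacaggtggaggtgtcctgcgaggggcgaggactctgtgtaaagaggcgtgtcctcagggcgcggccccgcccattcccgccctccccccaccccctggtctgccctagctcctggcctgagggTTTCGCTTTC
The *Tnf* window held TATAAA at 29 to 24 bases before the start. The *Fas* window held AP-1 and GAS matches. The *Tnfrsf1b* window held a GAS match and, in the last 10 bases before the start, the interferon regulatory factor element on the opposite strand (TTTCGCTTTC). Over 32841 promoter windows of the same length, the shares with a match were 12.4% for TATAAA, 7.02% for GAS, 6.75% for AP-1, 2.98% for the interferon regulatory factor element and 7.25% for kappaB. Among the other members, *Tnfsf13b* held the interferon regulatory factor element and an AP-1 match before one of its 2 starts, *Tnfrsf1a* held a GAS match, and *Tnfrsf9* held GAS, AP-1 and 2 overlapping kappaB matches (GGGGATTTCC and GGGATTTCCC) before the second of its 2 starts. *Tnfsf10*, *Tnfsf15* and *Tnfrsf11a* held none of these letters in the window. These are letter matches and say nothing of binding in these cells.

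The end of the *Tnf* message is shown because proteins of the list on mRNA control below bind such letters. In the 764 bases of its 3′ UTR (GENCODE M21, GRCm38) the heptamer TATTTAT, the core of the AU-rich element that binds the mRNA decay factor tristetraprolin (*Zfp36*), occurred 8 times with overlaps. Bases 438 to 467 of the UTR held 5 of them, shown in capitals.
Tnf AU-rich element: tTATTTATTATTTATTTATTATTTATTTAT
*Tnfsf10* held 3 matches, *Tnfsf13b* and *Tnfrsf11a* 1 each, and the other 5 members 0. At least 1 match was found in 25.5% of 21020 genes with a 3′ UTR and at least 3 in 3.59%.

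The sequencing gave 40934540 to 80925478 counts per library. All 8 macrophage markers passed the filter, and their summed level lay between 986250 and 1255560 normalized counts (counts divided by the DESeq2 size factor of the library). The defining markers *Cd3e*, *Cd3g*, *Ncr1*, *Ly6g*, *Mpo*, *Retnlg*, *Hba-a1* and *Hbb-bs* were at 0 counts in all libraries. The lymphocyte list, 1 of 7 genes past the filter, summed to 2.94 to 26.1 normalized counts, and the neutrophil list, 2 of 7, to 88.9 to 296 outside LPS and 313 to 344 in LPS. The dendritic cell list, 3 of 5 genes past the filter, summed to 149 to 246 normalized counts in PBS, frHMGB1 and dsHMGB1, 580 to 638 in LPS and 1007 to 1106 in LPS/IFNγ, and the fibroblast list, 5 of 6 genes, to 6297 to 13910 in the first 3 conditions and 15216 to 16285 in the other two. The macrophage sum, mostly *Lyz2* (666742 to 958671), was 986250 to 1018390 in LPS/IFNγ, below the 1069600 to 1167040 of PBS. The lymphocyte sum was 2.94 to 7.47 in LPS, below the 11.6 to 22.3 of PBS. The macrophage, dendritic cell and fibroblast sums thus moved with the stimulation. The neutrophil sum lay apart from PBS only in LPS, and the lymphocyte sum rests on few counts. The part of these 5 lists in the results was not tested. PBS replicate 3 stood apart, with Pearson's r of 0.934 and 0.939 with the other PBS libraries on log2 CPM over the tested genes, where every other pair of replicates lay between 0.987 and 0.993, and its share of counts in processed pseudogenes was 1.49% against 0.805% and 0.816%. Values without it are given where it decides a result. In such bulk samples, fewer cells with a message and less message per cell cannot be told apart.

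Across the members, dsHMGB1, LPS and LPS/IFNγ raised most genes, and under frHMGB1 only *Tnf* was called by edgeR. A gene was called when its adjusted p was under 0.05 in edgeR's quasi-likelihood test over all tested genes. Under frHMGB1, 1 of 9 members was called higher and 0 lower, where 1.31% of all tested genes were called higher and 5.69% lower. Under dsHMGB1, 7 were called higher and 0 lower (23.3% and 24.2% of all tested genes), under LPS 8 and 0 (26.7% and 36.2%), and under LPS/IFNγ 7 and 1 (29.0% and 31.2%). The median log2 fold change of the members was 0.24, 2.88, 3.61 and 3.02 in the same order, beside -0.01, -0.10, -0.21 and -0.12 for all tested genes. For each count of 0 among the members, 0 members had an unadjusted p under 0.05 in that direction and DESeq2 called 0. The 4 comparisons share the PBS libraries. Past the log2 fold change of 2 that the study used without a p were 0, 5, 6 and 6 members, where 0.609%, 8.43%, 10.9% and 12.1% of the tested genes lay above it. *Tnfsf13b* was called in no comparison with TMM scaling.

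**Figure D1:**
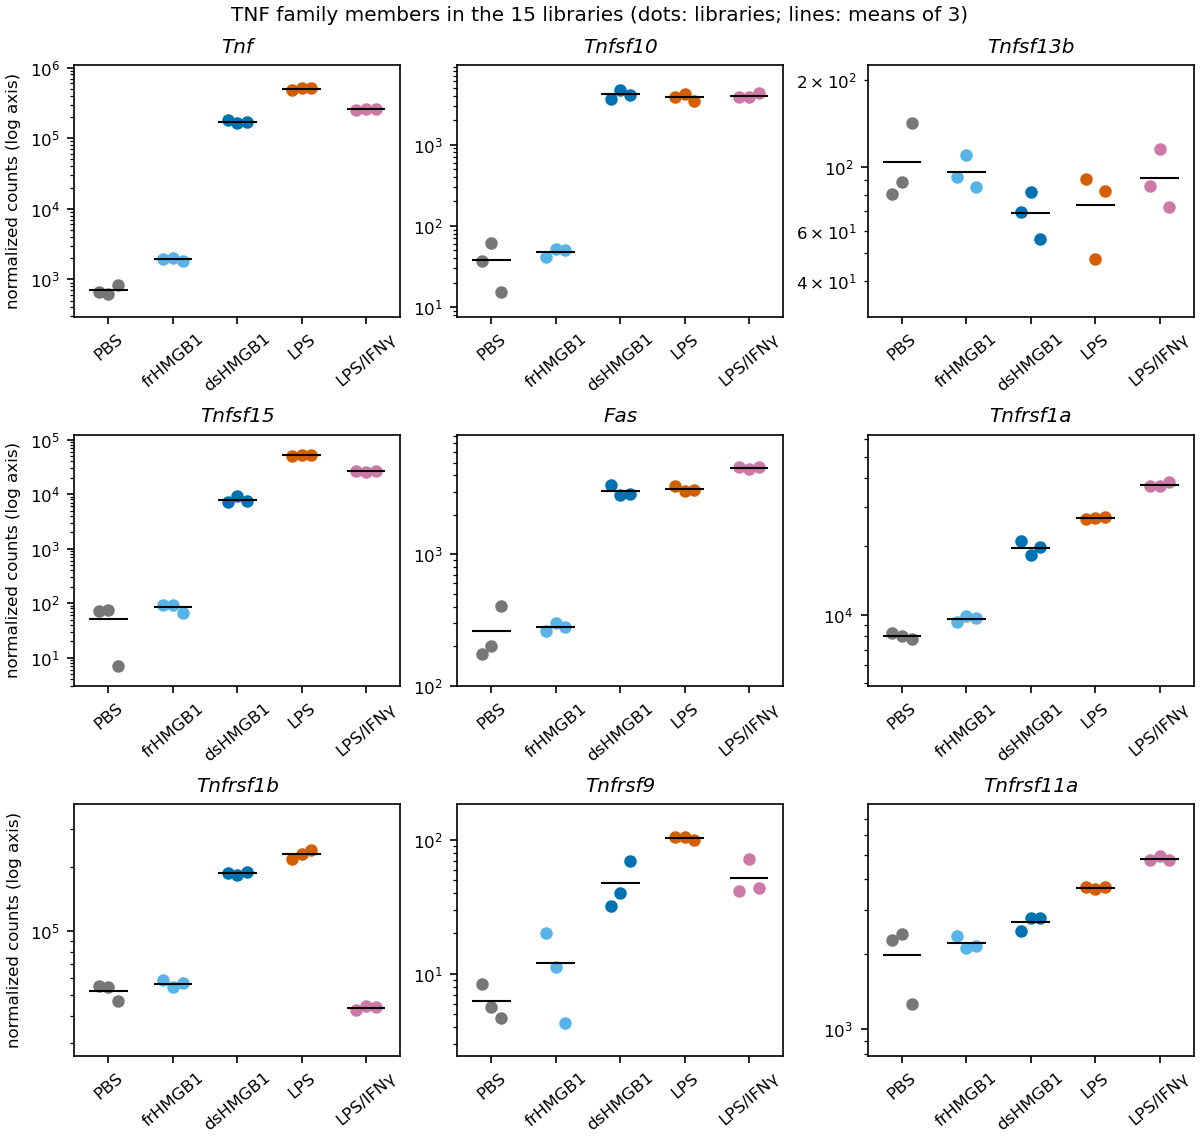
Normalized counts on log axes for each of the 9 members in the 15 libraries, with 1 dot per library and a line at the mean of 3. *Tnf*, *Tnfsf10*, *Tnfsf15* and *Fas* are high in dsHMGB1, LPS and LPS/IFNγ and low in PBS and frHMGB1, *Tnfrsf1b* is low in LPS/IFNγ, and PBS replicate 3, the right dot of its group, lies away from the other PBS dots for *Tnfsf15*, *Fas* and *Tnfrsf11a*.

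Of the ligands, *Tnf* (ENSMUSG00000024401, chr17:35199381-35202007, minus strand) rose under all 4 stimulations. Its normalized counts in replicates 1, 2 and 3 were 658, 622 and 839 in PBS and 1917, 2036 and 1833 in frHMGB1. They were 182915, 164574 and 168672 in dsHMGB1, 478825, 514809 and 512385 in LPS, and 251098, 260337 and 262076 in LPS/IFNγ. No libraries of any pair of conditions overlapped, and the order from low to high was PBS, frHMGB1, dsHMGB1, LPS/IFNγ and LPS, with each step called.

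The rise of *Tnf* under frHMGB1 was 2.74-fold (95% interval 2.37 to 3.18, log2 fold change 1.46, SE 0.11, adjusted p by edgeR 8.03e-07), below the cut-off of 2. Without PBS replicate 3 the log2 fold change was 1.59. Against PBS, *Tnf* was 245-fold higher in dsHMGB1 (212 to 283), 714-fold higher in LPS (619 to 825) and 367-fold higher in LPS/IFNγ (318 to 424). dsHMGB1 was 89.2-fold above frHMGB1 (77.5 to 103). dsHMGB1 reached a level 2.92-fold below LPS (2.54 to 3.35) and 1.50-fold below LPS/IFNγ (1.30 to 1.72), and LPS/IFNγ lay 1.95-fold below LPS (1.70 to 2.24), with adjusted p of 1.83e-07, 0.000356 and 9.23e-06 by edgeR. In LPS, *Tnf* took 0.660% to 0.694% of all counts of a library.

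*Tnfsf15* (ENSMUSG00000050395, chr4:63727084-63745113, minus strand) encodes TL1A, a ligand that costimulates T cells through DR3. It had 71.1, 75.0 and 7.03 normalized counts in PBS, 93.0, 92.0 and 66.9 in frHMGB1 and 7109, 9290 and 7444 in dsHMGB1. It had 50573, 52575 and 52252 in LPS and 26478, 25932 and 26171 in LPS/IFNγ. PBS replicate 3 was far below the other PBS libraries, PBS and frHMGB1 overlapped, and the 3 other conditions were apart from both and from each other.

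Against PBS, the log2 fold changes of *Tnfsf15* were 7.25 (SE 0.45) in dsHMGB1, 9.96 (SE 0.45) in LPS and 8.98 (SE 0.45) in LPS/IFNγ, all called. They were 6.76, 9.46 and 8.48 without PBS replicate 3. frHMGB1 was 1.61-fold above PBS with an interval of 0.869 to 3.00 and was not called. dsHMGB1 lay 6.52-fold below LPS (3.61 to 11.8, adjusted p by edgeR 0.000363), the only member difference between dsHMGB1 and LPS past the cut-off of 2, and 3.30-fold below LPS/IFNγ (1.83 to 5.94, 0.00469). LPS/IFNγ lay 1.98-fold below LPS (1.10 to 3.57) and was not called at an adjusted p of 0.0979, although the libraries did not overlap. Per kilobase of exon, the level of *Tnf* was 19.3 to 20.0 times that of *Tnfsf15* in the LPS libraries, 19.4 to 20.5 times in LPS/IFNγ and 36.2 to 52.5 times in dsHMGB1. The dsHMGB1 libraries were apart from those of LPS (exact permutation test, two-sided p = 0.1, the smallest that 3 against 3 allows).

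*Tnfsf10* (ENSMUSG00000039304, chr3:27317028-27342427, plus strand) encodes TRAIL, which induces apoptosis through its death receptor. It had 36.9, 61.2 and 15.2 normalized counts in PBS and 41.7, 52.1 and 50.7 in frHMGB1. It had 3659, 4736 and 4057 in dsHMGB1, 3856, 4225 and 3441 in LPS, and 3884, 3869 and 4261 in LPS/IFNγ. The high and the low conditions were far apart, and within each of these sets the libraries overlapped.

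*Tnfsf10* rose 106-fold in dsHMGB1 (72.5 to 154), 97.9-fold in LPS (67.1 to 143) and 102-fold in LPS/IFNγ (70.0 to 149). The 3 conditions were not called different from each other: dsHMGB1 over LPS was 1.08-fold with an interval of 0.767 to 1.52, dsHMGB1 over LPS/IFNγ 1.04-fold (0.736 to 1.46) and LPS/IFNγ over LPS 1.04-fold (0.740 to 1.47). *Tnf* differed between the same conditions by up to 2.92-fold.

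*Tnfsf13b* (ENSMUSG00000031497, chr8:10006467-10039072, plus strand) encodes BAFF, a survival factor of B cells. Its normalized counts were 80.2, 88.3 and 142 in PBS, 91.9, 109 and 85.2 in frHMGB1 and 69.4, 81.4 and 56.3 in dsHMGB1. They were 90.5, 47.8 and 82.3 in LPS and 85.9, 115 and 72.2 in LPS/IFNγ. All conditions overlapped except dsHMGB1 with frHMGB1, and no neighbours in the order of the means were called different. The largest difference from PBS, in dsHMGB1, was 0.676-fold (interval 0.454 to 1.01, adjusted p by edgeR 0.110). With libraries scaled by their totals instead of by TMM, its log2 fold changes of -0.90 in dsHMGB1, -1.14 in LPS, and -0.83 after LPS/IFNγ were called lower, where the median of all tested genes moved to -0.46, -0.89 and -0.81.

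**Figure D2:**
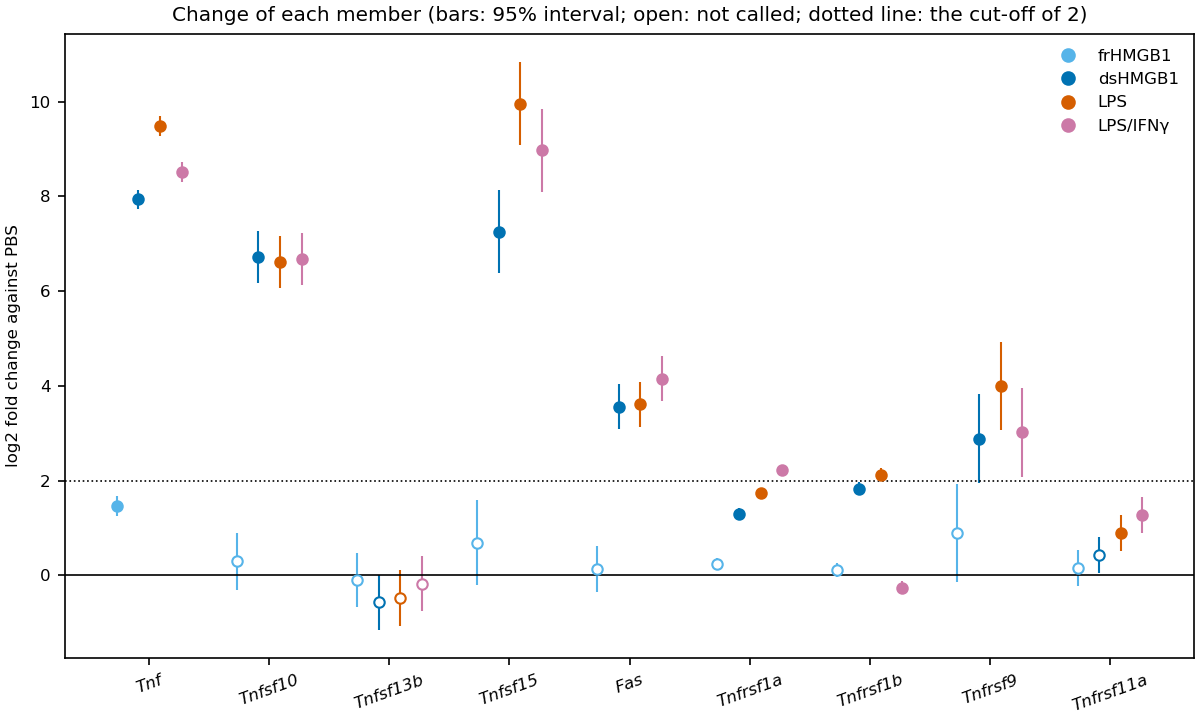
Log2 fold change against PBS from DESeq2 for each member (dots, with 95% intervals as bars), filled where called by edgeR and open where not, with a dotted line at the cut-off of 2. *Tnf* in frHMGB1, at 1.46, is the only filled dot of that stimulation, and *Tnfrsf1b* in LPS/IFNγ, at -0.26, is the only filled dot below 0.

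Of the receptors, the TNF receptors went different ways under LPS/IFNγ. *Tnfrsf1a* (ENSMUSG00000030341, chr6:125349362-125362484, plus strand) had 8303, 8065 and 7831 normalized counts in PBS, 9275, 9801 and 9608 in frHMGB1 and 21244, 18307 and 19798 in dsHMGB1. It had 26394, 26855 and 27119 in LPS and 37107, 37219 and 38438 in LPS/IFNγ. No conditions overlapped, and the order was PBS, frHMGB1, dsHMGB1, LPS and LPS/IFNγ.

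Against PBS, *Tnfrsf1a* rose 2.45-fold in dsHMGB1 (2.26 to 2.67), 3.32-fold in LPS (3.05 to 3.61) and 4.66-fold in LPS/IFNγ (4.29 to 5.06). The steps from dsHMGB1 to LPS (1.35-fold, 1.25 to 1.47) and from LPS to LPS/IFNγ (1.40-fold, 1.29 to 1.52) were called, with adjusted p of 0.00315 and 0.000316 by edgeR. The first of them was not called when libraries were scaled by their totals (log2 fold change of dsHMGB1 over LPS -0.10, adjusted p by edgeR 0.503). frHMGB1 lay 1.19-fold above PBS (1.09 to 1.29) and was not called by edgeR (adjusted p 0.0793), was called by DESeq2 (adjusted p 0.00131) and was called by edgeR without PBS replicate 3 (log2 fold change 0.23, adjusted p 0.0169).

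*Tnfrsf1b* (ENSMUSG00000028599, chr4:145213463-145246870, minus strand) had 55494, 54412 and 47221 normalized counts in PBS, 58814, 54647 and 56887 in frHMGB1 and 186992, 182545 and 189585 in dsHMGB1. It had 217884, 230267 and 239509 in LPS and 42712, 44670 and 44099 in LPS/IFNγ. dsHMGB1 and LPS were high and LPS/IFNγ was the lowest condition, apart from all others.

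*Tnfrsf1b* rose 3.56-fold in dsHMGB1 (3.22 to 3.93) and 4.38-fold in LPS (3.97 to 4.83) against PBS. In LPS/IFNγ it was 5.23-fold lower than in LPS (4.74 to 5.77, adjusted p by edgeR 4.27e-09) and 4.25-fold lower than in dsHMGB1 (3.85 to 4.69, 3.20e-09). It was the only member called lower than PBS in any condition, by 1.20-fold in LPS/IFNγ (1.08 to 1.32, adjusted p by edgeR 0.0156), and this small difference was not called without PBS replicate 1 (0.0682), without PBS replicate 2 (0.0578), without the filter on low counts (0.169) or with the 2 conditions fitted alone (0.189). LPS lay 1.23-fold above dsHMGB1 (1.11 to 1.36) and was not called (0.0666), while it was called by DESeq2 (0.000249) and by edgeR with RLE scaling (0.0148), with a minimum of 1 CPM in 3 libraries (0.0385) or with the 2 conditions fitted alone (0.00776).

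Per kilobase of exon, *Tnfrsf1b* was at 4.40 ± 0.27 times the level of *Tnfrsf1a* in PBS (SD, n = 3), 4.04 ± 0.26 in frHMGB1, 6.41 ± 0.40 in dsHMGB1 and 5.80 ± 0.20 in LPS. In LPS/IFNγ the ratio was 0.791 ± 0.020, so that per kilobase *Tnfrsf1a* was above *Tnfrsf1b* in all 3 libraries of that condition and in no other library. The lengths join all annotated exons of a gene. In normalized counts, *Tnfrsf1b* stayed above *Tnfrsf1a* in LPS/IFNγ (means 43827 and 37588). The ratio does not depend on the scaling of the libraries. It was 7.33 times lower in LPS/IFNγ than in LPS, and the libraries did not overlap (exact permutation test, two-sided p = 0.1, the smallest possible). dsHMGB1 and LPS overlapped (p = 0.2 by the same exact test), and both lay above PBS without overlap.

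**Figure D3:**
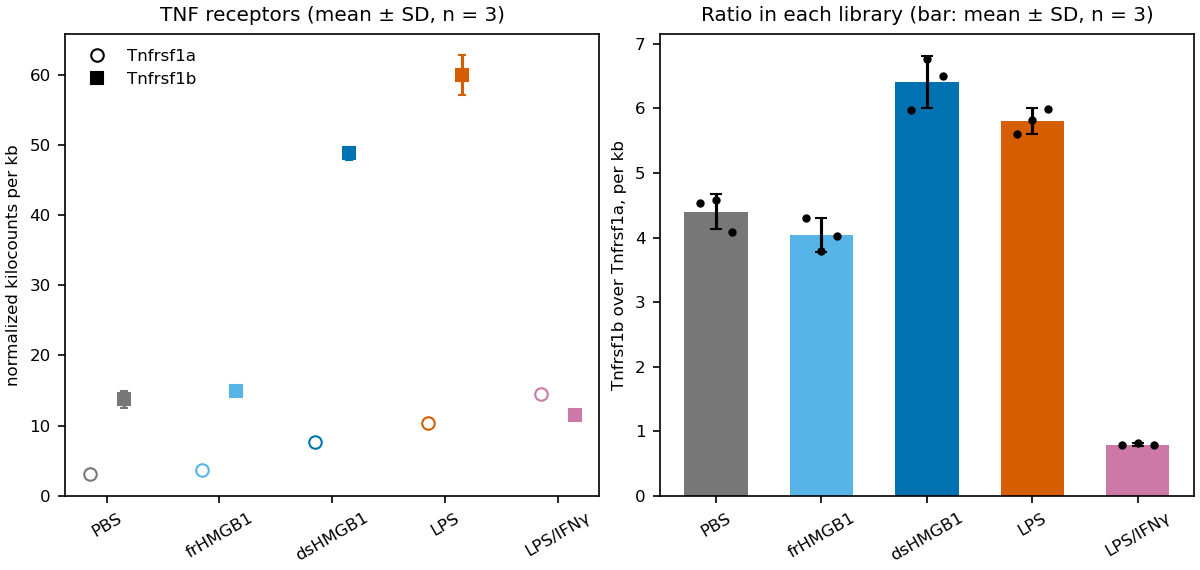
Left, normalized counts per kilobase of exon, on a linear axis from 0 with a unit of 1 kilocount, of *Tnfrsf1a* (open circles) and *Tnfrsf1b* (squares) in the 5 conditions, as mean ± SD of 3 libraries. Right, the ratio of *Tnfrsf1b* to *Tnfrsf1a* in each library (dots), with bars for the mean and error bars for the SD, which lies between 3.78 and 6.77 in 4 conditions and between 0.779 and 0.814 in LPS/IFNγ.

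*Fas* (ENSMUSG00000024778, chr19:34290666-34327772, plus strand), the death receptor of Fas ligand, had 175, 199 and 403 normalized counts in PBS and 261, 301 and 278 in frHMGB1. It had 3367, 2836 and 2866 in dsHMGB1, 3289, 3038 and 3083 in LPS, and 4605, 4499 and 4596 in LPS/IFNγ. PBS replicate 3 was above the other PBS libraries and above all of frHMGB1, dsHMGB1 overlapped with LPS, and LPS/IFNγ was above both.

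*Fas* rose 11.8-fold in dsHMGB1 (8.47 to 16.4), 12.2-fold in LPS (8.78 to 17.0) and 17.8-fold in LPS/IFNγ (12.8 to 24.7). Under frHMGB1 it was 1.09-fold of PBS (0.780 to 1.53) and not called, and without PBS replicate 3 its log2 fold change was 0.59 with an adjusted p of 0.000833 by edgeR. LPS/IFNγ lay 1.46-fold above LPS (1.05 to 2.01, adjusted p 0.0577, not called) and 1.51-fold above dsHMGB1 (1.09 to 2.09, adjusted p by edgeR 0.0470). The second was called only narrowly: leaving out any dsHMGB1 or LPS/IFNγ library gave adjusted p of 0.0697 to 0.133. The gene of Fas ligand, *Fasl*, did not pass the filter on low counts.

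*Tnfrsf11a* (ENSMUSG00000026321, chr1:105780718-105847981, plus strand) encodes RANK, the receptor through which RANKL drives osteoclast formation. It had 2286, 2410 and 1261 normalized counts in PBS, 2365, 2124 and 2168 in frHMGB1 and 2480, 2788 and 2793 in dsHMGB1. It had 3735, 3647 and 3704 in LPS and 4764, 4971 and 4778 in LPS/IFNγ. PBS replicate 3 was the lowest library, and dsHMGB1, LPS and LPS/IFNγ lay above PBS and, in that order, above each other without overlap.

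Against PBS, *Tnfrsf11a* rose 1.86-fold in LPS (1.43 to 2.42, adjusted p by edgeR 0.00255) and 2.43-fold in LPS/IFNγ (1.87 to 3.16, 9.77e-05). Without PBS replicate 3 these log2 fold changes went from 0.89 and 1.28 to 0.65 and 1.03, and both were called. With libraries scaled by their totals, the difference in LPS was 0.16 and not called (adjusted p by edgeR 0.540). dsHMGB1 was 1.35-fold above PBS (1.04 to 1.76) and was not called (0.0974), but was called by DESeq2 and without PBS replicate 2. dsHMGB1 lay 1.80-fold below LPS/IFNγ (1.39 to 2.34, adjusted p by edgeR 0.00481). No neighbours in the order of the means were called different. *Tnfsf11*, the gene of its ligand, did not pass the filter.

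*Tnfrsf9* (ENSMUSG00000028965, chr4:150914562-150946102, plus strand) encodes 4-1BB, a costimulatory receptor best known on T cells. It was the lowest member in PBS and frHMGB1, with 8.40, 5.68 and 4.69 normalized counts in PBS and 20.3, 11.2 and 4.31 in frHMGB1. It had 32.0, 40.4 and 69.8 in dsHMGB1, 105, 105 and 100.0 in LPS, and 41.4, 71.6 and 43.9 in LPS/IFNγ. PBS and frHMGB1 were below the other 3 conditions, dsHMGB1 overlapped with LPS/IFNγ, and LPS was above all.

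*Tnfrsf9* rose 7.38-fold in dsHMGB1 (3.86 to 14.1), 16.1-fold in LPS (8.42 to 30.6) and 8.13-fold in LPS/IFNγ (4.24 to 15.6) against PBS. These folds rest on 26 counts in the 3 PBS libraries together and on 174, 219 and 155 counts in dsHMGB1, LPS and LPS/IFNγ. LPS was 2.18-fold above dsHMGB1 (1.28 to 3.71) and was not called (adjusted p by edgeR 0.0685), while it was called by DESeq2 (0.0163) and by edgeR with the 2 conditions fitted alone (0.00977) or without dsHMGB1 replicate 3 (0.0389). The gene *Camta1* overlaps *Tnfrsf9* on the other strand and had 85.3 to 252 normalized counts, so reads could be misassigned if strand was not used in counting, which the sources used here do not give. *Camta1* had 127 to 252 in PBS, 89.0 to 120 in dsHMGB1, 85.3 to 106 in LPS and 136 to 149 in LPS/IFNγ, the last within the range of PBS. The gene of its ligand, *Tnfsf9*, is described with the other ligands below.

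Between the stimulations themselves, *Tnf*, *Tnfsf15* and *Tnfrsf1a* were lower in dsHMGB1 than in both LPS and LPS/IFNγ. Against frHMGB1, dsHMGB1 had 7 of 9 members called higher and 0 lower (27.7% and 23.1% of all tested genes), and *Tnfsf13b* and *Tnfrsf11a* were not called. Against LPS, 0 members were called higher and 3 lower in dsHMGB1 (15.8% and 10.6%), namely *Tnf*, *Tnfsf15* and *Tnfrsf1a*, and DESeq2 called 5 lower. Against LPS/IFNγ, dsHMGB1 had *Tnfrsf1b* called higher and 5 members called lower (16.5% and 16.7%), namely *Tnf*, *Tnfsf15*, *Fas*, *Tnfrsf1a* and *Tnfrsf11a*. In LPS/IFNγ against LPS, *Tnfrsf1a* was called higher and *Tnf* and *Tnfrsf1b* lower (16.3% and 9.36%). Each of these comparisons shares its libraries with others.

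The levels of the members can be ranked per kilobase of exon. In PBS, *Tnfrsf1b* was highest with 13718 ± 1178 normalized counts per kilobase (SD, n = 3), followed by *Tnfrsf1a* with 3113 ± 91, *Tnf* with 431 ± 71 and *Tnfrsf11a* with 332 ± 105, and *Tnfrsf9* was lowest with 2.30 ± 0.71. In dsHMGB1, *Tnf* was first with 104975 ± 5873, and *Tnfrsf1b* followed with 48815 ± 933. *Tnf* was also first in LPS with 306288 ± 12271 and in LPS/IFNγ with 157314 ± 3600, where *Tnfrsf1a* was second.

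Over the 15 libraries, and among 11847 genes whose mean reached 100 normalized counts in 1 condition or more, the genes with the most similar pattern were found by Pearson's r of log2(normalized count + 1). They were *Slc2a6* and *Traf1* for *Tnf* (both r = 0.998), *Trim30c* and *Tnfaip3* for *Tnfsf15* (both 0.998), and *BE692007* and *Rnf14* for *Tnfsf10* (0.998 and 0.997). For the receptors they were *Rnf19b* and *Sh3bp4* for *Tnfrsf1a* (0.998 and 0.996), *Eng* and *Gramd1b* for *Tnfrsf1b* (0.995 and 0.994), *Rab20* and *Sod2* for *Fas* (0.996 and 0.995), *Mertk* and *Arhgap6* for *Tnfrsf11a* (0.996 and 0.994) and *Slamf1* and *Plcb3* for *Tnfrsf9* (0.970 and 0.961). For *Tnfsf13b* the highest were *Gm28285* (0.832) and *Mettl9* (0.805). Among the members, *Tnf* correlated with *Tnfsf15* at 0.980 and with *Tnfsf10* at 0.979, and *Tnfrsf1a* with *Tnfrsf1b* at 0.308. The 15 points fall into 5 conditions and share the scaling of the libraries, and no p is given.

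Of 14 other TNF superfamily ligands, 11 were tested. Under dsHMGB1, 6 were called higher and 2 lower, under LPS 7 and 2, under LPS/IFNγ 7 and 3, and under frHMGB1 0 in either direction by edgeR, with 0 at an unadjusted p under 0.05 and 0 by DESeq2. Of all tested genes, 23.3% were called higher and 24.2% lower under dsHMGB1, 26.7% and 36.2% under LPS, and 29.0% and 31.2% under LPS/IFNγ. Under frHMGB1 the shares were 1.31% and 5.69%. The median log2 fold changes of these ligands were 2.91, 5.37, 4.99 and -0.20, and the last was 0.08 without PBS replicate 3. For all tested genes they were -0.10, -0.21, -0.12 and -0.01 in the same order. These shares and medians are also the background of the lists below. *Tnfsf4*, encoding OX40L, went from 0 to 5.05 normalized counts in PBS to 515 to 707 in dsHMGB1 and 5160 to 5993 in LPS (log2 fold changes 7.79 and 10.96) and to 7924 to 8911 in LPS/IFNγ (11.57). *Tnfsf9*, encoding 4-1BBL, went from a mean of 39.2 to 3909 in dsHMGB1 and 11072 in LPS (6.68 and 8.19), and *Tnfsf8*, encoding CD30L, from 4.08 to 1009 in LPS/IFNγ (7.76). *Tnfsf12*, encoding TWEAK, fell by 2.27, 2.52 and 2.58 on the log2 scale in dsHMGB1, LPS and LPS/IFNγ. PBS replicate 3 had 17013 normalized counts of it against 5802 and 5071, and without that library it fell by 1.50, 1.76 and 1.81. *Tnfsf12* overlaps the readthrough gene *Tnfsfm13* on its own strand, so its counts are uncertain. *Cd70* had 0 counts in all PBS libraries.

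Of 23 other receptors, 19 were tested, and these did not move one way. Under dsHMGB1, 6 were called higher and 7 lower, under LPS 5 and 5, under LPS/IFNγ 8 and 6, and under frHMGB1 0 in either direction by edgeR, where *Cd40* alone had an unadjusted p under 0.05 and was the 1 gene called by DESeq2, with median log2 fold changes of -0.05, 0.03, 0.27 and 0.15. *Cd40*, the receptor for help from T cells, had the largest log2 fold change among the genes of the 5 lists. It had 39.7 to 105 normalized counts in PBS, 49378 to 60386 in dsHMGB1, 148110 to 153376 in LPS and 235078 to 242769 in LPS/IFNγ, with log2 fold changes of 9.77, 11.24 and 11.92. Under frHMGB1 it was not called, with a log2 fold change of 0.89, and it was called without PBS replicate 3 (1.43, adjusted p by edgeR 6.77e-05), where 1 receptor was called higher and 2 lower. Without that library the medians of the receptors were -0.03, 0.18, 0.62 and 0.02 in the order given above. *Tnfrsf21*, encoding death receptor 6, fell by 2.07 in LPS and 2.23 in LPS/IFNγ on the log2 scale.

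All 23 genes of the TNF receptor signalling complex were tested. Of these, 14 were called higher and 2 lower under dsHMGB1, 14 and 2 under LPS, 15 and 3 under LPS/IFNγ, and 1 and 0 under frHMGB1. The medians were 0.86, 0.99, 1.16 and 0.08. The 1 gene under frHMGB1 was *Traf1*, an adaptor at TNFR2, with 174, 188 and 205 normalized counts in PBS and 362, 335 and 302 in frHMGB1 (log2 fold change 0.83, adjusted p by edgeR 7.47e-05). Without PBS replicate 3, 7 genes of this list were called higher under frHMGB1 and 1 lower, 17 and 2 under dsHMGB1, and 16 and 3 under both LPS and LPS/IFNγ. The medians were then 0.63, 0.74, 0.82 and 0.10 in the order given above. *Traf1* also rose in dsHMGB1, LPS and LPS/IFNγ, by 5.95, 7.17 and 6.80 on the log2 scale without that library.

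Of 13 genes of death signalling downstream of the receptors, all tested, 6 were called higher and 2 lower under dsHMGB1, 9 and 1 under LPS, and 8 and 4 under LPS/IFNγ. Their medians were 0.94, 1.01 and 1.18. Under frHMGB1 0 were called by edgeR in either direction (median 0.17), 1 had an unadjusted p under 0.05 and DESeq2 called 0, and 2 were called higher without PBS replicate 3. Without that library 8 were called higher and 1 lower under dsHMGB1, with a median of 0.56.

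Of 13 genes of TNF processing and mRNA control, all tested, 3 were called higher and 0 lower under frHMGB1, 9 and 2 under dsHMGB1, and 11 and 2 under both LPS and LPS/IFNγ, with medians of 0.35, 1.73, 2.45 and 1.29. *Zfp36*, the mRNA decay factor named above, rose under frHMGB1 by 0.45 on the log2 scale, from 5307 to 6171 normalized counts in PBS to 7786 to 7947, and *Zc3h12a*, encoding the RNase Regnase-1, rose by 0.58. Without PBS replicate 3 these rises were 0.39 and 0.44. In dsHMGB1, LPS and LPS/IFNγ, *Zfp36* then rose by 1.84, 2.94 and 1.22, and *Zc3h12a* by 2.01, 3.79 and 3.25. The related *Zfp36l1* fell by 2.38 in dsHMGB1, 2.28 in LPS, and 2.76 after LPS/IFNγ, and *Zfp36l2* fell by 1.66 in dsHMGB1. PBS replicate 3 had 5534 normalized counts of *Zfp36l2* against 21031 and 21200. Without that library the fall of *Zfp36l2* was 2.07 for dsHMGB1, 1.79 for LPS and 2.20 for LPS/IFNγ, each called, so it was not particular to dsHMGB1. Without PBS replicate 3 the count under frHMGB1 was 4 higher and 1 lower, with a median of 0.18. The list holds factors known to raise and factors known to lower TNF production.

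**Figure D4:**
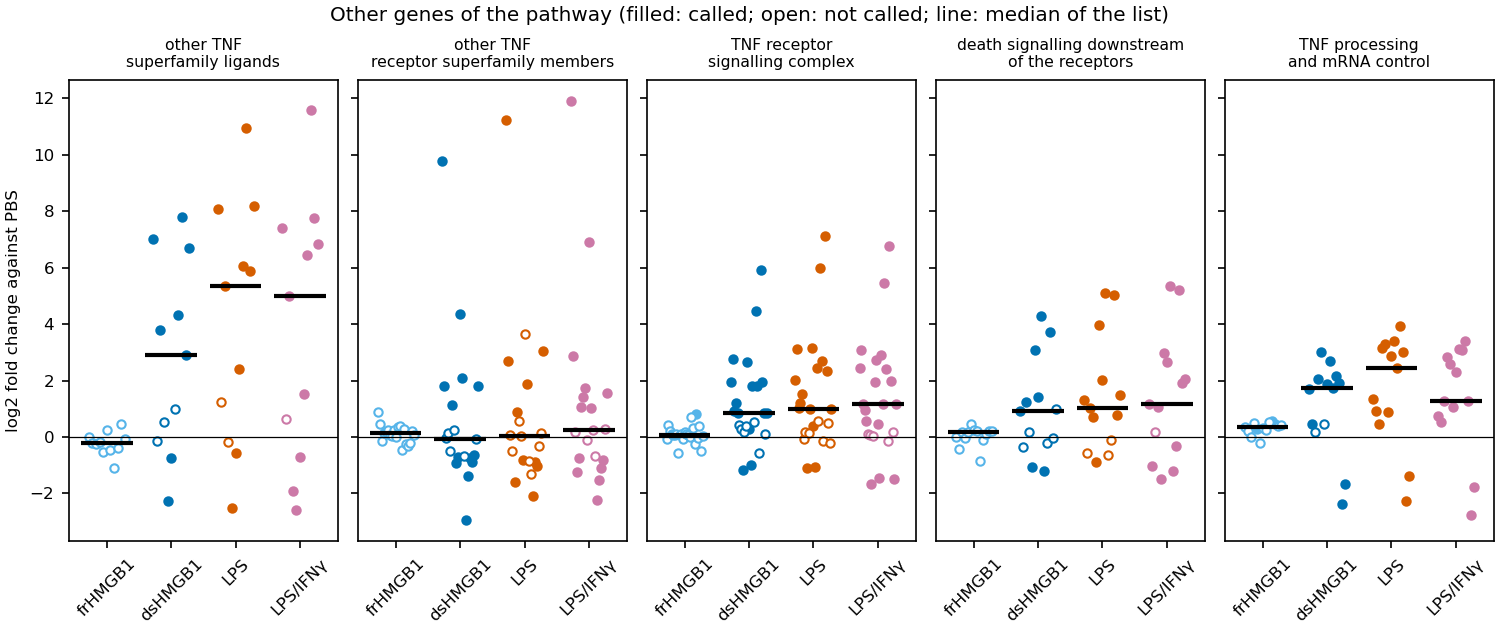
Log2 fold change against PBS of each tested gene in the 5 lists of the pathway, filled where called and open where not, with a line at the median of the list. The ligands reach 11.57 (*Tnfsf4* in LPS/IFNγ) and the receptors 11.92 (*Cd40* in LPS/IFNγ), while under frHMGB1 all dots lie between -1.09 (*Tnfsf18*) and 0.89 (*Cd40*).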

How the data were processed

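RNA was sequenced from 15 libraries of mouse BMDMs, 3 for each of 5 conditions. The authors deposited raw read counts per gene, which per the labels came from reads aligned with STAR to GRCm38 after CASAVA, and DESeq2 is named in their processing notes. The program and annotation used for counting, and whether it used strand, were not given in the sources used here. In every library more genes had 2 counts than 1 and more had 4 than 3, so a count may stand for less than 1 sequenced fragment, which was not tested. GENCODE M21 held 51661 of the gene identifiers and lacked 102, and 22712 genes had no count. Library totals of 40934540 to 80925478 limit the precision of low genes such as *Tnfrsf9*.

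The counts were tested in R 4.3.3 with edgeR 4.0.16 (quasi-likelihood F test, glmQLFit, TMM, filterByExpr, all 15 libraries in 1 fit, Benjamini-Hochberg adjustment over 16919 genes, threshold 0.05). DESeq2 1.42.0 gave normalized counts, unshrunken log2 fold changes, their SE and the 95% intervals, which are Wald intervals. Fits were tested on simulated data with known changes. These data held no library set apart as PBS replicate 3 was, and no result here rests on them. The study itself used a log2 fold change of 2 without a p. Ratios were compared by two-sided exact permutation tests.

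The members and lists were chosen with earlier results of these data known. The named genes are the 9 members and, of the lists, the called genes with the largest changes in each direction and a mean of at least 100 normalized counts in 1 condition. *Tnfsf18*, and *Cd40* under frHMGB1, were named after their values were seen. Some single-gene values are not reported here. Groups came from the sample labels, and 0 columns had no sample. No replicates agreed within sampling noise. Deviations of same-numbered libraries from their condition means correlated at -0.39 to 0.37, so no common pairing by number was seen. With 3 libraries per condition this check cannot exclude a pairing. Alternatives were RLE scaling, DESeq2, other filters, protein-coding genes only, a replicate block, 2 conditions alone, each library left out and, chosen after seeing the data, scaling by totals. The gene sequences came from RefSeq (GRCm38.p6) and GENCODE M21 tables.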

Additional observations from a re-analysis of the deposited data

How the results depend on the processing

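Of 1007 values of single members under the alternatives, 966 kept their direction and their side of the threshold, 24 passed it only under the alternative, 17 passed it only in the reported fit, and 0 called values changed direction. The counts of members called moved as follows, and the cause was not tested. Moves by 1 member in a count of 2 or more are not listed. Under frHMGB1 against PBS, 2 were called higher by DESeq2 and 1 to 3 when single replicates were left out, with 3 (*Tnf*, *Fas* and *Tnfrsf1a*) without PBS replicate 3. In LPS/IFNγ against PBS, 0 were called lower without the filter on low counts and with the 2 conditions alone, and 0 to 1 when single replicates were left out, with 0 without PBS replicate 1 or 2. In dsHMGB1 against LPS, DESeq2 called 5 lower and the fit of the 2 conditions alone 6, and in LPS/IFNγ against LPS the latter fit called 3 higher and 4 lower. With total-count scaling, 1 was lower in dsHMGB1 against PBS, 1 in LPS against PBS, 2 in LPS/IFNγ against PBS, 1 in dsHMGB1 against frHMGB1 and 3 in dsHMGB1 against LPS/IFNγ, and 2 were higher in LPS/IFNγ against LPS. This scaling moved the median log2 fold change of all genes from -0.27 to -0.89 in LPS, from -0.15 to -0.81 in LPS/IFNγ and from -0.11 to -0.46 in dsHMGB1 against PBS.

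Counts over all genes moved more. Under frHMGB1 against PBS, 222 genes were called higher, and 502 by DESeq2, 96 without the filter, 41 among protein-coding genes, 7 with the 2 conditions alone, 114 to 140 without 1 frHMGB1 library and 1459 without PBS replicate 3. There, 963 were lower, and 547 at 1 CPM, 29 among protein-coding genes, 182 with the 2 conditions alone and 1576 without PBS replicate 3. With total-count scaling, the genes higher and lower went from 3936 and 4092 to 2615 and 6689 in dsHMGB1, from 4515 and 6121 to 2653 and 9458 in LPS, and from 4914 and 5284 to 2976 and 8782 in LPS/IFNγ, all against PBS. It also gave 6340 lower for dsHMGB1 against frHMGB1 (3905 with TMM), 4661 higher and 885 lower for dsHMGB1 against LPS (2670 and 1791) and 4806 and 1663 for dsHMGB1 against LPS/IFNγ (2797 and 2824). The fit of the 2 conditions alone gave 2493 higher and 2254 lower for dsHMGB1 against PBS, 3685 lower for LPS against PBS, 3224 lower for dsHMGB1 against LPS, 4296 and 4284 for dsHMGB1 against LPS/IFNγ, and 4564 and 4435 for LPS/IFNγ against LPS (2765 and 1583).

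No common pairing by replicate number was seen, although 3 libraries per condition cannot exclude one. With the replicate block, 1 member call was not made, that of *Fas* in dsHMGB1 against LPS/IFNγ (log2 fold change -0.59, adjusted p by edgeR 0.0616), and the other 71 values kept their side of the threshold.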
